A study of Homo sapiens with 6 samples.

Results

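The genes described here encode enzymes that place or remove methyl groups on histone lysines, other than the catalytic H3K4 methyltransferases of the KMT2 family and Polycomb, together with the scaffold menin. They were listed by symbol, 39 in all, and each was read from the probe set with that symbol in the platform annotation (the probe set with the highest mean where there were several). Of the 39 genes, 37 had a named probe set, among 17687 named genes on the array. KDM1A and ASH1L had no probe set named here and are not described further. RNA was measured in Jurkat, a long-established human cell line from a T-cell acute lymphoblastic leukaemia, on 6 Affymetrix arrays with 1 sample each. All cells were kept without serum for 90 min after growth in 10% serum. The untreated group (n = 3) then received nothing, and the CXCL12 group (n = 3) received the chemokine CXCL12 at 100 ng/ml for 15 min, to find which transcripts CXCL12 alters in these leukaemic cells. The line is a single leukaemic line, and the titles call the samples biological replicates without saying whether they were separate cultures, so the p-values rest on the spread among these samples, part of which may be technical.

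Methylation of histone lysines does not alter their charge but is bound by reader proteins, and its effect depends on the residue. Methylation of H3K4, H3K36 and H3K79 is found on active genes, that of H3K9 and H3K27 on silenced chromatin, and that of H4K20 in compacted chromatin and DNA repair. Writers mostly carry a SET catalytic domain, with DOT1L as the exception, and take the methyl group from S-adenosylmethionine. Erasers are flavin-dependent amine oxidases (the KDM1 enzymes) or JmjC-domain dioxygenases, which need iron, oxygen and 2-oxoglutarate. In T-cell leukaemia KDM6A has been described as a tumour suppressor and KDM6B as a cofactor of NOTCH1. Neither role was tested in these cells.

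Values are log2 signals, and a change is the CXCL12 mean minus the untreated mean, fitted with limma over all 16086 probe sets that were not dim. A probe set was left out as dim when its mean lay below 4.44, the 25th percentile of the table. Array medians ran from 6.18 to 6.22. Untreated replicate 1 correlated least with the other arrays (mean 0.982, against 0.987 to 0.989), so for genes described array by array the change without it is given where it differs by over 1.5 times. The 12 T-lineage markers all had means between 8.26 and 11.42, above the dim limit, while 1 of 2 B cell, 1 of 5 myeloid, 2 of 3 epithelial, 1 of 4 fibroblast, 2 of 4 NK cell and 0 of 3 erythroid markers were dim. The other markers of these types with a probe set were above the limit, the highest of each type being CD79A (B cell, 7.92), COL1A2 (fibroblast, 7.85), NKG7 (NK cell, 7.14), CSF1R (myeloid, 6.10), KRT19 (epithelial, 5.92) and KLF1 (erythroid, 5.71), so these levels do not show that other lineages were absent. The summed T-lineage level was 112.7 to 113.3 in untreated and 113.0 to 113.9 in CXCL12 arrays. EGR1, an early response transcription factor, had an adjusted p of 4.52e-05 and CD69, an early activation receptor, an adjusted p of 0.0394 in the limma fit, and they were the 2 probe sets that passed at 0.05 (0.0124% of those tested).

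None of the 36 tested histone methylation genes passed that threshold (0 higher, 0 lower, limma, smallest adjusted p 0.996). At an unadjusted limma p under 0.05 there was 1 of 36 (2.78%), KDM7A, which was higher (0 lower), against 4.73% of all probe sets (2.72% higher, 2.01% lower). The CXCL12 arrays lay wholly above or below the untreated arrays for 5 of 36 genes (13.9%), against 9.54% of all probe sets. KDM7A, KDM6A and EHMT1 were higher (3 of 36, against 5.05% of all probe sets) and KDM4A and SMYD2 lower (2 of 36, against 4.48%). The median change was -0.04 (quartiles -0.12 and 0.05), against 0.00 over all probe sets, and the median size of a change regardless of sign was 0.10 in both. In bulk RNA a change in the number of cells that express a gene and a change in RNA per cell cannot be told apart.

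The intervals limit how much these transcripts can have differed. For 34 of the 36 genes (94.4%) the 95% interval stayed inside a 1.5-fold change in both directions, as it did for 89.9% of all probe sets. The exceptions were KDM7A, whose interval reached 0.87 on the log2 scale, and KDM6B, whose interval reached -0.63. The margin on either side of a change ran from 0.25 to 0.43 on the log2 scale. All 36 genes had means above 6.19, the median of the table, so none of these values came from the dim end. KDM4D, a testis-associated H3K9 demethylase, was the 1 member left out as dim, with 4.15, 3.93 and 3.14 in untreated and 3.35, 3.75 and 3.74 in CXCL12 replicates 1 to 3.

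**Figure D1:**
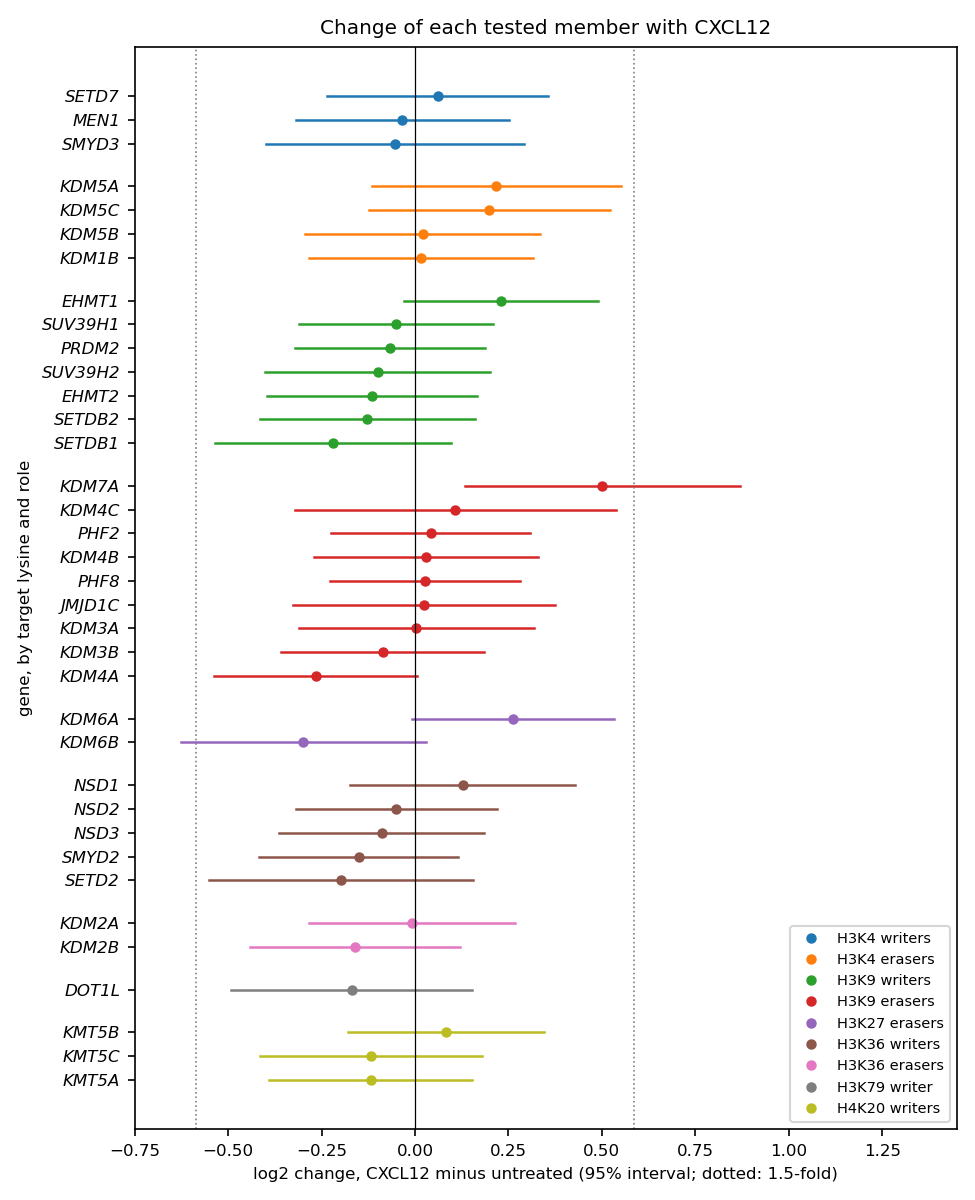
Change of each of the 36 tested genes (log2, CXCL12 minus untreated, 3 arrays each) with its 95% limma interval, grouped by target lysine and role, with dotted lines at a 1.5-fold change either way. KDM7A is the 1 gene whose interval does not include 0, and 34 of the 36 intervals lie between the dotted lines.

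H3K9 demethylases held the gene with the largest change. KDM7A, a JmjC enzyme with a PHD finger that acts on H3K9 and H3K27, read 6.06, 6.55 and 6.72 in untreated and 6.76, 7.07 and 7.0 in CXCL12 replicates 1 to 3. The groups did not overlap, but the gap between the highest untreated and the lowest CXCL12 array was 0.04, and untreated replicate 1 was the lowest of all. The means were 6.44 ± 0.35 and 6.95 ± 0.16 (SD, n = 3 each), which is 1.42-fold higher with CXCL12 (log2 change 0.50, SE 0.17, 95% interval 0.13 to 0.87). It ranked 180 of 16086 by p and did not pass (limma adjusted p = 0.996, unadjusted 0.0117). Without untreated replicate 1 the change was 0.31.

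KDM4A, which removes trimethylation from H3K9 and H3K36, had the lowest change of this group. It read 6.71, 7.03 and 6.94 in untreated and 6.57, 6.66 and 6.64 in CXCL12 replicates 1 to 3. The 3 CXCL12 arrays were close together and lay below every untreated array, by a gap of 0.05. The means of 6.89 ± 0.16 and 6.63 ± 0.05 (SD, n = 3 each) gave a change of -0.27 (SE 0.12, 95% interval -0.54 to 0.01, limma adjusted p = 0.996).

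The other 7 tested H3K9 demethylases had changes between -0.09 and 0.11, each with overlapping arrays. PHF8 and PHF2, which share the PHD and JmjC arrangement of KDM7A, had 0.03 and 0.04. KDM3A, KDM3B and JMJD1C, which remove mono- and dimethylation, had 0.00, -0.09 and 0.02, and KDM4B had 0.03. KDM4C had the widest spread of all 36 genes: its CXCL12 arrays ran from 7.18 (replicate 2) to 8.10 (replicate 3), around a change of 0.11 that was -0.13 without CXCL12 replicate 3. KDM3B lies on chromosome 5 beside EGR1, with REEP2 between them in the RefSeq gene order. KDM3B had a change of -0.09 (95% interval -0.36 to 0.19), REEP2 -0.04 and EGR1 1.98.

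H3K9 methyltransferases mostly had small negative changes (6 of 7), with EHMT1 as the exception. EHMT1, also called GLP, had 8.25, 8.23 and 8.17 in untreated and 8.57, 8.32 and 8.46 in CXCL12 replicates 1 to 3. Its untreated arrays were tightly grouped and all CXCL12 arrays were higher, by a gap of 0.07. The change was 0.23 (SE 0.12, 95% interval -0.03 to 0.49, limma adjusted p = 0.996), from 8.22 ± 0.04 to 8.45 ± 0.12 (SD, n = 3 each). EHMT2, also called G9a, with which EHMT1 forms the dimer that dimethylates H3K9, had -0.11 with overlapping arrays.

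SETDB1, which trimethylates H3K9 at retroelements and zinc-finger genes with TRIM28, had 8.61, 8.19 and 8.16 in untreated and 8.04, 8.02 and 8.24 in CXCL12 replicates 1 to 3. The arrays overlapped, and the untreated mean was raised by replicate 1. The change was -0.22 (SE 0.15, limma adjusted p = 0.996), or -0.07 without untreated replicate 1. SUV39H1 and SUV39H2, which trimethylate H3K9 in pericentric heterochromatin, had -0.05 and -0.10 (SUV39H2 0.03 without CXCL12 replicate 2), and SETDB2 and PRDM2 had -0.13 and -0.07.

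The H3K27 demethylases KDM6A (UTX) and KDM6B (JMJD3) had changes of opposite sign. KDM6A had 6.78, 6.82 and 6.57 in untreated and 7.01, 6.88 and 7.07 in CXCL12 replicates 1 to 3. All of its CXCL12 arrays were above the untreated ones, by a gap of 0.06. The change was 0.26 (SE 0.12, 95% interval -0.01 to 0.53, limma adjusted p = 0.996).

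KDM6B had 8.17, 7.92 and 7.66 in untreated and 7.44, 7.77 and 7.65 in CXCL12 replicates 1 to 3. Its arrays overlapped, with untreated replicate 3 below CXCL12 replicate 2. The change was -0.30 (SE 0.15, 95% interval -0.63 to 0.03, limma adjusted p = 0.996), with -0.17 without untreated replicate 1. The KDM6A change minus the KDM6B change was 0.56. In each array, relative to the untreated mean, this difference was -0.20, 0.09 and 0.11 in untreated and 0.76, 0.31 and 0.62 in CXCL12 replicates 1 to 3. It did not pass (two-sided exact permutation test p = 0.10, adjusted p = 0.677 over 22 pairs). Both genes are described for their small p in the same arrays, so their difference is no independent support.

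**Figure D2:**
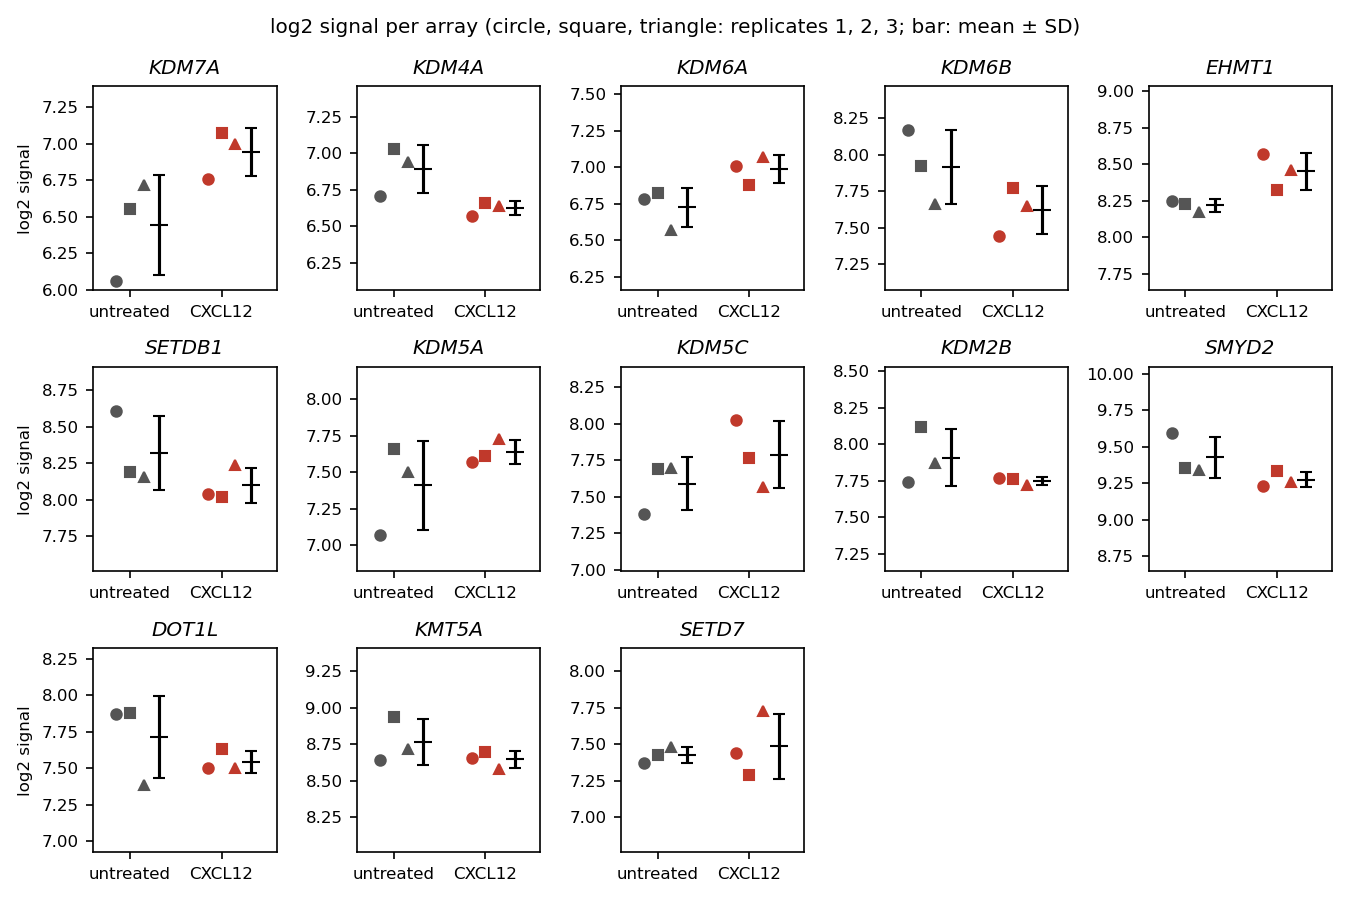
log2 signal of 13 genes in each array: the 10 with the smallest p and the gene with the smallest p in each lysine group not among them. Each panel spans the same 1.4 log2 units, and the CXCL12 arrays lie clear of the untreated arrays for KDM7A, KDM4A, KDM6A, EHMT1 and, by 0.01, SMYD2.

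Promoter sequences are shown for the 5 genes with the smallest p, as the stretch just before an annotated start of transcription. Each is the 250 bases before the first start that RefSeq lists (GRCh38.p14), written 5′ to 3′ on the gene's strand, with matches to the motifs named below in capitals. KDM7A is at chr7:140176984-140177233 (minus strand), KDM4A at chr1:43649899-43650148 (plus), KDM6A at chrX:44872938-44873187 (plus), KDM6B at chr17:7833967-7834216 (plus) and EHMT1 at chr9:137618755-137619004 (plus).
KDM7A: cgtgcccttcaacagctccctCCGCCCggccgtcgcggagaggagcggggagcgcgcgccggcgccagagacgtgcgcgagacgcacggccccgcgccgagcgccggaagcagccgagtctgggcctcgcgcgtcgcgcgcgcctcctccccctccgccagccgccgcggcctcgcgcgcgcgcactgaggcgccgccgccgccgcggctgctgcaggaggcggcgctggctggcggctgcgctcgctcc
KDM4A: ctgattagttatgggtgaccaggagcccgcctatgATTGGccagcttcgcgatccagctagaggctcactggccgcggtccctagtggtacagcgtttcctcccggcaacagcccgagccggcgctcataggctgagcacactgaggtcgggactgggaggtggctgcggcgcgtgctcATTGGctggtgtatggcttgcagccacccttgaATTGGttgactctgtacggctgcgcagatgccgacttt
KDM6A: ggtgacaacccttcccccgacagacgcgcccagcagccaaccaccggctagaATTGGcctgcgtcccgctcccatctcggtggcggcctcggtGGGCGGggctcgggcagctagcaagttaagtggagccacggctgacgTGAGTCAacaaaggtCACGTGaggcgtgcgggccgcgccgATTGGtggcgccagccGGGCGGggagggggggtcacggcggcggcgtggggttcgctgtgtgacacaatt
KDM6B: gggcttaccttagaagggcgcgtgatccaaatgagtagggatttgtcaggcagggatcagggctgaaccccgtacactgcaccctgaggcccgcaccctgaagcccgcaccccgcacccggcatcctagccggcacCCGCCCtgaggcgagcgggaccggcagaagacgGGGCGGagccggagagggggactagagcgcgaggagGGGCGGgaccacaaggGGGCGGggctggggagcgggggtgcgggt
EHMT1: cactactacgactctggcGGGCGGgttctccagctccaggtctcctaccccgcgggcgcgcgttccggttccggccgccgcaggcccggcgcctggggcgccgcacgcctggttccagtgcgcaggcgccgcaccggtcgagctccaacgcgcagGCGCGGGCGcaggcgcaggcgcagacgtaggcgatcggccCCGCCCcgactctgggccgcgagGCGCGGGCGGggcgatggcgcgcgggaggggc

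The motifs were searched on both strands in the windows of 34 tested genes and of 15843 protein-coding genes, counting a gene when any of its listed windows held a match. No window was used for DOT1L and NSD3. The SP/KLF box (GGGCGG) was in 27 of 34 (79.4%) against 62.1% of all genes, and the CCAAT box (CCAAT) in 17 of 34 (50%) against 40.2%. The EGR site (GCGNGGGCG), which can overlap the SP/KLF box, was in 13 of 34 (38.2%) against 14.1%. EHMT1 holds EGR site matches from 95 and from 32 bases before the start, the nearer of which overlaps an SP/KLF box. An E-box (CACGTG) was in 7 (20.6%, against 9.73%), an AP-1 site (TGANTCA) in 3 (8.8%, against 7.09%), a cyclic AMP response element (TGACGTCA) in 2 (5.9%, against 2.73%) and a serum response element in 2 (5.9%, against 1.59%). KDM6A holds an AP-1 match from 110 and an E-box from 95 bases before the start, and the KDM6B window shown holds SP/KLF boxes alone. The ETS site (CCGGAAGT, 5.82% of all genes) and the TATA box (TATAAA, 11.9%) had no match in these windows. The first windows of the 34 genes were rich in CpG: the median ratio of observed to expected CpG was 0.92 against 0.74, and 30 of 34 (88.2%) had a ratio of at least 0.6 against 63.4%. The motif shares were not adjusted for base content or for the number of windows per gene, which ran from 1 to 5 among these genes. A match is a stretch of letters and shows no binding.

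H3K4 demethylases had positive changes with all 6 arrays (4 of 4), none past the threshold, but the signs of KDM1B and KDM5B did not hold. KDM5A, which removes di- and trimethylation from H3K4, had 7.07, 7.66 and 7.50 in untreated and 7.57, 7.61 and 7.73 in CXCL12 replicates 1 to 3. The arrays overlapped, and untreated replicate 1 was far below the rest. The change was 0.22 (SE 0.15, limma adjusted p = 0.996), with 0.05 without untreated replicate 1 and 0.34 without untreated replicate 2.

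KDM5C, the X-linked member of the same family, had 7.38, 7.69 and 7.70 in untreated and 8.03, 7.77 and 7.57 in CXCL12 replicates 1 to 3. CXCL12 replicate 3 lay inside the untreated range. The change was 0.20 (SE 0.15, limma adjusted p = 0.996), with 0.09 without untreated replicate 1, 0.08 without CXCL12 replicate 1 and 0.31 without CXCL12 replicate 3. KDM5B and KDM1B, an amine oxidase of the KDM1 type, each had 0.02. With median centring KDM1B was at -0.0055 and KDM5B at -0.0008, and each was at -0.09 in a fit without 1 array (KDM1B without untreated replicate 3, KDM5B without untreated replicate 1).

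Genes tied to H3K4 methylation were near 0. SETD7, a monomethyltransferase with many non-histone substrates, had 7.37, 7.43 and 7.48 in untreated and 7.44, 7.29 and 7.73 in CXCL12 replicates 1 to 3. The CXCL12 arrays spanned the untreated range, and the change was 0.06 (95% interval -0.24 to 0.36, limma adjusted p = 0.996), with 0.03 without untreated replicate 1 and -0.06 without CXCL12 replicate 3. MEN1, which encodes menin, a scaffold of the KMT2A and KMT2B complexes and no enzyme itself, had -0.03, and SMYD3 had -0.05.

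H3K36 methyltransferases had 4 negative changes and 1 positive. SMYD2, which also methylates p53, had 9.59, 9.35 and 9.34 in untreated and 9.23, 9.33 and 9.26 in CXCL12 replicates 1 to 3. The groups were apart by a gap of only 0.01. The change was -0.15 (SE 0.12, limma adjusted p = 0.996), or -0.07 without untreated replicate 1. SETD2, which trimethylates H3K36 behind RNA polymerase II, had -0.20 with a 95% interval from -0.55 to 0.15 and overlapping arrays, and -0.34 without untreated replicate 3 or -0.07 without untreated replicate 2. NSD1, NSD2 and NSD3, which dimethylate H3K36, had 0.13, -0.05 and -0.09.

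Of the H3K36 demethylases, KDM2A had -0.01 and KDM2B, which also brings a Polycomb complex to CpG islands, had -0.16 (SE 0.13, limma adjusted p = 0.996). KDM2B had 7.74, 8.12 and 7.87 in untreated and 7.77, 7.76 and 7.72 in CXCL12 replicates 1 to 3. Its CXCL12 arrays were nearly equal and untreated replicate 1 lay among them. Leaving out untreated replicate 1 gave -0.25, and leaving out untreated replicate 2 gave -0.06.

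DOT1L, the H3K79 methyltransferase, had 7.87, 7.88 and 7.39 in untreated and 7.50, 7.63 and 7.50 in CXCL12 replicates 1 to 3. The CXCL12 arrays lay inside the untreated range. The change was -0.17 (SE 0.15, limma adjusted p = 0.996), with -0.33 when untreated replicate 3 was left out and -0.09 when replicate 1 or 2 was.

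Among H4K20 methyltransferases, KMT5A, the monomethyltransferase active in mitosis, had 8.64, 8.94 and 8.72 in untreated and 8.66, 8.70 and 8.58 in CXCL12 replicates 1 to 3. The arrays overlapped, and untreated replicate 2 was the highest. The change was -0.12 (SE 0.12, limma adjusted p = 0.996), with -0.18 without untreated replicate 1 and -0.03 without untreated replicate 2. KMT5B and KMT5C, which add the further methyl groups, had 0.08 and -0.12.

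With all 6 arrays, writers and erasers differed in the sign of most of their small changes. Genes are not replicates, and this difference was not tested. Of 19 tested genes on the writer side (menin included), 15 had a negative and 4 a positive change (median -0.09). Of 17 tested erasers, 12 changes were positive and 5 negative (median 0.02). Over all probe sets 50.7% were positive, and in the further lists described below 29 changes were positive and 46 negative. The arrays of the groups overlapped on both sides. Relative to the untreated mean, writers averaged 0.02, 0.06 and -0.09 in untreated and -0.06, -0.09 and -0.04 in CXCL12 replicates 1 to 3. Untreated replicate 3 was thus about as low as the lowest CXCL12 array. Erasers averaged -0.06, 0.08 and -0.02 in untreated and 0.02, -0.02 and 0.11 in CXCL12 replicates 1 to 3, so that CXCL12 replicates 1 and 2 were inside the untreated range. Without CXCL12 replicate 3, 6 erasers were positive and 11 negative. With median centring of the arrays 9 were positive and 8 negative, as they were without untreated replicate 3. Among writers, 4 were positive and 15 negative under each renormalization and without untreated replicate 1 or 3. There were 6 positive and 13 negative without untreated replicate 2 (median -0.03) or CXCL12 replicate 2 (median -0.11), 5 and 14 without CXCL12 replicate 1, and 3 and 16 without CXCL12 replicate 3.

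**Figure D3:**
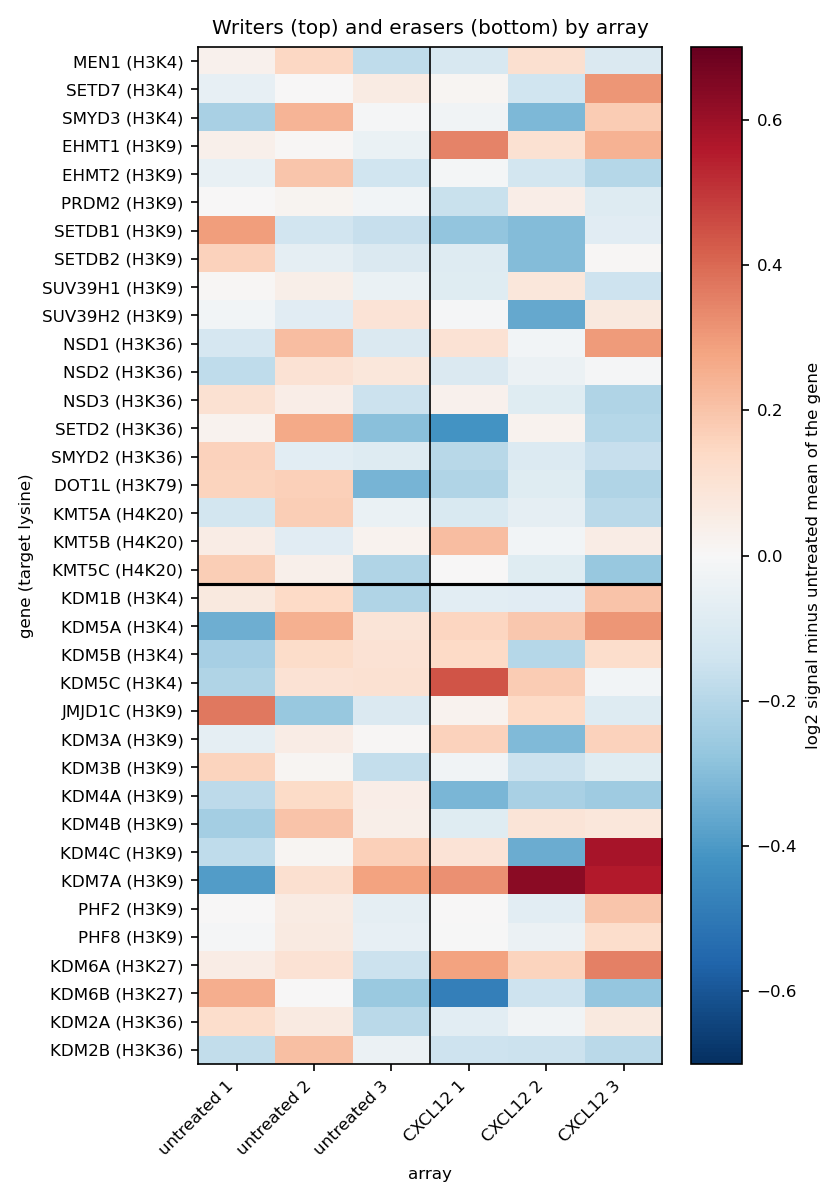
log2 signal of each tested gene in each array minus its untreated mean, writers above and erasers below the horizontal line, with the target lysine in brackets. CXCL12 arrays are to the right of the vertical line. The colours of most genes vary as much among the 3 untreated arrays as between the groups, and KDM7A is highest in CXCL12 replicates 2 and 3 and lowest in untreated replicate 1.

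Close relatives were compared within arrays, by the difference of their changes, over 22 pairs in 12 families. With 3 arrays a side a two-sided exact permutation test cannot go below p = 0.10, and after Benjamini-Hochberg adjustment over the 22 pairs the smallest adjusted p was 0.677. KDM6A against KDM6B had the largest difference (0.56, exact p = 0.10). EHMT1 against EHMT2 had a difference of 0.35 (exact p = 0.10), and the arrays read 0.09, -0.18 and 0.09 in untreated and 0.36, 0.24 and 0.44 in CXCL12 replicates 1 to 3. KDM4A against KDM4B had -0.29 (exact p = 0.10), with 0.06, -0.06 and 0.01 in untreated and -0.24, -0.32 and -0.33 in CXCL12 replicates 1 to 3. No other pair of the 22 reached this lowest possible p, which means only that the groups of arrays did not overlap. Arrays did not overlap for 9.54% of all single probe sets, and the share over all pairs of genes was not computed. The KDM6A, EHMT1 and KDM4A pairs each hold a gene named above for its small p in the same arrays, so their separation is no independent support. KDM7A against PHF8 and PHF2, which lay apart by 0.47 and 0.46, had an exact p of 0.20 in each case. SUV39H1 against SUV39H2 differed by 0.05 and NSD2 against NSD3 by 0.04.

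**Figure D4:**
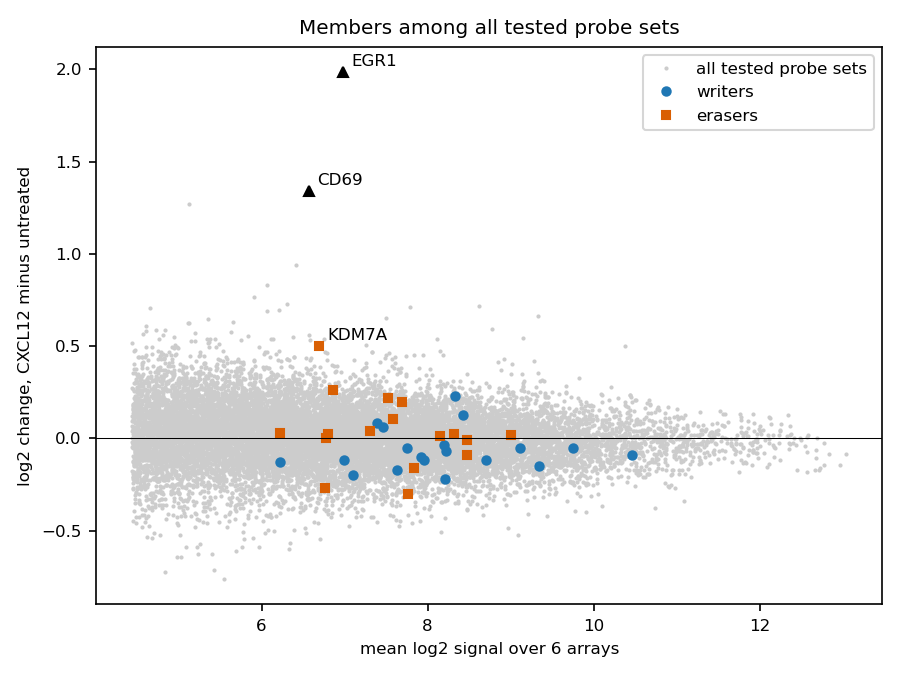
Mean log2 signal over the 6 arrays against the log2 change for all 16086 tested probe sets (grey), with writers as blue circles and erasers as orange squares. EGR1 (1.98) and CD69 (1.34) stand well above the cloud, while KDM7A (0.50) has the highest change of the 36 tested members and ranked 180 of all probe sets by p.

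Partners of these enzymes were read from 5 further lists with 75 tested genes of 83, of which 0 passed in the limma fit, 5 had an unadjusted p under 0.05 (6.67%, against 4.73% of all probe sets), 29 had a positive and 46 a negative change. Among the other lysine methyltransferases and JmjC proteins (23 tested, 10 positive, 13 negative), HSPBAP1, a JmjC protein, had 0.34 and KMT2A, the H3K4 methyltransferase that binds menin, had -0.34 (limma adjusted p = 0.996 each). KMT2A had 8.72, 8.49 and 8.38 in untreated and 8.11, 8.25 and 8.23 in CXCL12 replicates 1 to 3, all lower with CXCL12. EZH2, the H3K27 methyltransferase that KDM6A and KDM6B oppose, had -0.12. Among partners of the H3K4 enzymes (13 tested, 4 positive, 9 negative), PHF21A and RCOR3, both of the CoREST complexes of KDM1A, had -0.46 and -0.32, with untreated replicate 1 the highest array for each (8.48 and 7.0). Without that array PHF21A had -0.23 and RCOR3 -0.09.

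Among partners of the H3K9 enzymes (8 tested, 2 positive, 6 negative), TRIM28, which recruits SETDB1, had 10.10, 10.23 and 10.04 in untreated and 9.76, 9.98 and 9.88 in CXCL12 replicates 1 to 3. Its change of -0.25 (SE 0.12, limma adjusted p = 0.996) separated the groups by 0.06. MPHOSPH8, an H3K9 methylation reader, had -0.11, with -0.03 without untreated replicate 3, -0.01 without CXCL12 replicate 2, and -0.16 and -0.18 without untreated replicate 1 and CXCL12 replicate 3. Of the partners and readers of H3K36, H3K79 and H4K20 methylation (19 tested, 7 positive, 12 negative), DNMT3B, a DNA methyltransferase that reads H3K36 methylation, had 0.29 and PCGF1, of the KDM2B Polycomb complex, had 0.24 (0.12 without untreated replicate 1). In the supply of S-adenosylmethionine and 2-oxoglutarate (12 tested, 6 positive, 6 negative), MAT2A, which makes S-adenosylmethionine, had 0.17 and IDH3B, a subunit of mitochondrial isocitrate dehydrogenase, had -0.19.

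The direction of single genes depended on the arrays used. With each array left out in turn, 23 of the 36 genes kept the sign of their change in all 6 fits. The share of all probe sets that did so was not computed. The change ran from 0.31 to 0.64 for KDM7A, -0.36 to -0.20 for KDM4A, 0.19 to 0.32 for KDM6A and 0.17 to 0.29 for EHMT1. For these genes and SMYD2 the sign could not turn, because their groups of arrays did not overlap. KDM6B, whose arrays overlapped, ran from -0.43 to -0.17. Of the 36 genes, 13 turned sign at least once, among them KDM1B, KDM5B, KDM3A, JMJD1C and KDM2A, whose changes were within 0.03 of 0. Without untreated replicate 1, JMJD1C had 0.21, KDM2A 0.05, KDM3A -0.03, and KDM4B and KDM5B -0.09 each. KDM7A had an unadjusted limma p under 0.05 in each of 15 alternative fits (0.00352 to 0.0468), and its adjusted p was 0.749 or higher in all of them. These fits draw on the same arrays in which KDM7A had the smallest p of the members, so they are no independent support.

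**Figure D5:**
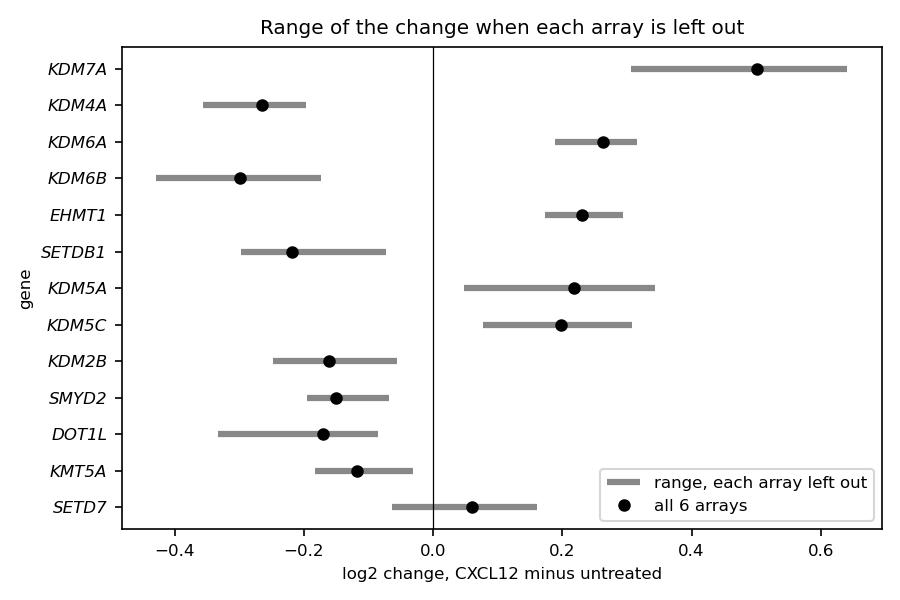
Change of 13 genes with all 6 arrays (black points) and the range of that change when each array is left out (grey bars), on the log2 scale. The bars of 12 genes stay on 1 side of 0, and that of SETD7 crosses it (-0.06 to 0.16). For KDM7A, KDM4A, KDM6A, EHMT1 and SMYD2 the bar could not cross 0, because their groups of arrays did not overlap.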

How the data were processed

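The authors deposited 1 log2 value per probe set and array. Per the submitters' processing notes, RMA (background correction, normalization between arrays and summary of each set's probes) and the Transcriptome Analysis Console were used. The genome build is not given in the sources used here, nor are versions or settings. Because the arrays were normalized to each other, a shift shared by all transcripts would not be seen. Detection calls and scan batches were not examined, and the number of arrays limits the precision.

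The table has 21448 probe sets, of which 17709 have 1 symbol, 0 several and 3739 are unnamed here. All 17709 occur in RefSeq (GRCh38.p14). Probe sets below the 25th percentile of the mean were left out. For the rest, lmFit and eBayes of limma 3.58.1 (R 4.3.3) were run two-sided on the 6 arrays without covariates, with Benjamini-Hochberg adjustment over 16086 probe sets. The fit was tested on simulated data. Groups follow the sample titles.

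The members and lists were chosen with earlier results of these data known. Arrays are given for the 10 members with the smallest p and for the smallest p of each remaining lysine group. From each further list the 2 genes with the smallest p are named. EZH2, REEP2 and the remaining members were added after their values were seen. Alternatives were other dim filters, renormalization, array weights, a replicate block, a robust prior with trend, averaged probe sets, an unadjusted threshold and leaving out each array. Replicate numbers carry no stated pairing and were not taken as pairs.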

Additional observations from a re-analysis of the deposited data

How the results depend on the processing

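In all 15 alternative fits 0 of the histone methylation genes passed an adjusted p of 0.05 (lowest 0.652, KDM4A with array weights). With an unadjusted threshold the count was 1. Leaving out each array gave 0 each time. The count over all probe sets, 2 with all arrays, was 4 with array weights, 1 under cyclic loess, under median centring and without the dim filter, and 1 to 2 with arrays left out singly. The median change of the genes lay between -0.0662 and 0.0120 with arrays left out singly (lowest without untreated replicate 3, highest without untreated replicate 2), and from -0.06 to -0.02 under the other settings. No renormalization moved the median of all probe sets beyond -0.02. SETD7 turned sign without CXCL12 replicate 3 (-0.063, and up to 0.16 without CXCL12 replicate 2). The replicate block gave 0 genes past the threshold, 2 probe sets in all and a median of -0.04. Deviations of same-numbered arrays correlated at -0.19, -0.11 and 0.11, and those of differently numbered arrays at -0.26 to 0.28. With so few arrays these values cannot decide whether the arrays were paired. The numbers were not taken as pairs because no pairing is stated. The causes of the differences between settings were not tested. Counts of genes with an unadjusted limma p under 0.05 ran from 1 to 4 across the fits, beside 3.39% to 6.51% of all probe sets. The count of 4 came with array weights (6.51% of all probe sets) and without CXCL12 replicate 2 (6.27%). With 3 arrays a side, differences smaller than the margins of 0.25 to 0.43 on the log2 scale could not be resolved.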
